A study of Sus scrofa with 24 samples.

Results

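The comparison described here set the infarct core against the border zone of the same heart in the 3 pigs that received medium, the placebo of the study. Its members are 6 of the 24 arrays, chosen by their labels as the core and border arrays of the pigs marked as not treated (pigs 10, 18 and 40), which gave 3 core minus border pairs. The study gave domestic pigs a closed-chest, reperfused myocardial infarction and, 1 month later, injected either medium or the secretome of apoptotic blood mononuclear cells into the heart muscle through a catheter. Tissue was taken 1 month after that treatment. The infarct core arrays came from scar of medium pigs, and the border arrays from the zone around it, which the labels also call the injection zone. The 12 core and border arrays of 6 secretome pigs and the 2 normal region arrays of medium pigs 10 and 18 were used beside them. Every pig of both arms had 250 mg of aspirin and 300 mg of clopidogrel the day before the infarct and then 100 mg and 75 mg a day. All heart tissue here thus comes from infarcted animals on 2 platelet inhibitors, and the design text plans 8 pigs per arm, of which 3 with medium are analysed here. The sources used here give neither age nor sex.

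After a myocardial infarction the muscle that dies is cleared by macrophages and replaced by a collagen scar that fibroblasts lay down. The border zone joins this scar to surviving muscle and holds both. Heart muscle cells are marked by contractile proteins of the sarcomere and by a high content of mitochondria that burn fatty acids, while scar is marked by collagens, fibronectin and the cells that make and remodel them.

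Total RNA (100 ng per sample) was hybridised to 1-colour porcine arrays with 60-base probes. Levels are given as log2 of the processed signal over the 75th percentile of the same array, so that 0 means the signal of that percentile, and a difference of 1 means a doubling of relative signal. On the 6 arrays 61.5% to 75.7% of the 43603 probes lay well above background. The border array of pig 40 stood apart, with the lowest share of probes above background and a 75th percentile of 210 intensity units, against 311 and 591 on the other border arrays and 354 to 614 on the core arrays. The core array of pig 40 stood apart in another way. The 9 measured heart muscle markers had median levels of 8.22, 7.40 and 3.30 in the cores of pigs 10, 18 and 40, against 9.54, 8.00 and 9.27 in their borders. Muscle markers were thus high in all 3 borders, as their label as heart tissue has it. In the core of pig 40 they were far lower, although their median still lay above the array's 75th percentile. Of 5 measured fibroblast markers 2 were called higher in the core, as were 3 of 3 measured macrophage markers. In bulk tissue, fewer muscle cells and less RNA per muscle cell cannot be told apart. The replicates are separate pigs. Core and border of pig 10 shared a slide, as did those of pig 18, while those of pig 40 lay on different slides.

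Across the 3 pairs, 8021 of 34362 probes (23.3%) passed a limma adjusted p under 0.05, 3691 higher and 4330 lower in the core. Read by gene, 876 of 6357 genes (13.8%) were higher and 940 (14.8%) lower in the core, or 28.6% in either direction. Without pig 40 the same fit called 19 of 34361 probes (0.0553%), 17 higher (0.0495%) and 2 lower (0.00582%), and 5 genes (0.0787%), all higher, while 7793 probes had an unadjusted p under 0.05. With pig 40, the direction was the same in all 3 pigs for 1799 of the 1816 called genes, and the 1811 that lost the call without pig 40 all kept their direction. These genes were called from the same 3 pairs, so their agreement is no separate support for the calls. Over all genes, with no test, 30.4% were higher and 28.5% lower in all 3 pigs. These fits take the spread between arrays from all 24 arrays, so an SE does not measure the spread of the 3 pairs alone. A fit on the 6 medium arrays alone called 0 probes with limma, with 8042 at an unadjusted p under 0.05. Another background correction (normexp) called 1527 probes, 229 higher and 1298 lower. The authors' normalized values, which hold only 4832 of the 6357 genes, called 822 of them higher and 565 lower.

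The 5 genes shown next passed with and without pig 40, and the probes that measured them are shown to identify the targets of that result, each by the 30 bases at its 5′ end of 60, as the array files give them.
ACP5: aaggaaagctctctcctgggtcaggcatcc
CYP2D25: cagccttcgcttcagcagtagccctggcat
OSTM1: cagccccttttaaagggtttaggtattttt
STEAP1: gagatgtcatcccagttgtagaattgctgt
WISP2: acagcccacggaacagtgccttttagagcc
ACP5 is the tartrate-resistant acid phosphatase of osteoclasts and of some tissue macrophages. Its level was 5.03, 6.18 and 7.85 in the cores of pigs 10, 18 and 40, against 0.77, 2.69 and 3.45 in their borders. Every core array lay above every border array, and pig 10 had the lowest core and the lowest border. The log2 difference was 4.05 (SE 0.55, limma adjusted p = 0.00103) and 3.88 (SE 0.64, adjusted p = 0.0329) without pig 40, and all 4 kept probes of the gene passed without that pig. WISP2, also called CCN5, is a secreted matricellular protein of the CCN family. It read -1.20, -2.24 and -1.34 in the cores, against -4.61, -3.80 and -4.36 in the borders, with no overlap and with the narrowest gap in pig 18. Its log2 difference was 2.67 (SE 0.28, limma adjusted p = 0.000165) and 2.49 (SE 0.35, adjusted p = 0.0168) without pig 40.

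STEAP1, a protein of the cell membrane, read -3.12, -2.92 and -1.82 in the cores, against -7.38, -5.49 and -4.00 in the borders, again with no overlap. Its difference was 3.0 (SE 0.54, limma adjusted p = 0.00288) and 3.42 (SE 0.62, adjusted p = 0.0494) without pig 40. The STEAP1 borders of pigs 10 and 18 lay below the 10th percentile of kept probes on their arrays (-5.38 and -5.39). The size of the STEAP1 difference is thus uncertain. OSTM1, a lysosomal membrane protein that partners the chloride transporter CLCN7 in osteoclasts, read -2.02, -2.02 and -1.34 in the cores, against -3.09, -2.80 and -2.08 in the borders. The core was higher in each pig, and the border of pig 40 came close below the cores of the other pigs. The difference was 0.86 (SE 0.15, limma adjusted p = 0.00263) and 0.93 (SE 0.14, adjusted p = 0.0169) without pig 40. CYP2D25, a pig cytochrome P450, read -1.89, -2.14 and -1.99 in the cores, against -3.22, -3.53 and -4.33 in the borders, a difference of 1.68 (SE 0.22, limma adjusted p = 0.000917) and 1.36 (SE 0.24, adjusted p = 0.0419) without pig 40. Of the other 14 probes called without pig 40, 3 were further probes of ACP5, 1 each belonged to CYP11A1, F13A1 and ATP8B4, and 8 had no gene name here, among them the pair lower in the core. F13A1, the coagulation factor XIII A chain that resident macrophages make, had a log2 difference of 1.64 (SE 0.29, limma adjusted p = 0.0409) on that probe without pig 40. F13A1, CYP11A1 and ATP8B4 were named after their values were seen, and the brightest probe of each did not pass.

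**Figure D1:**
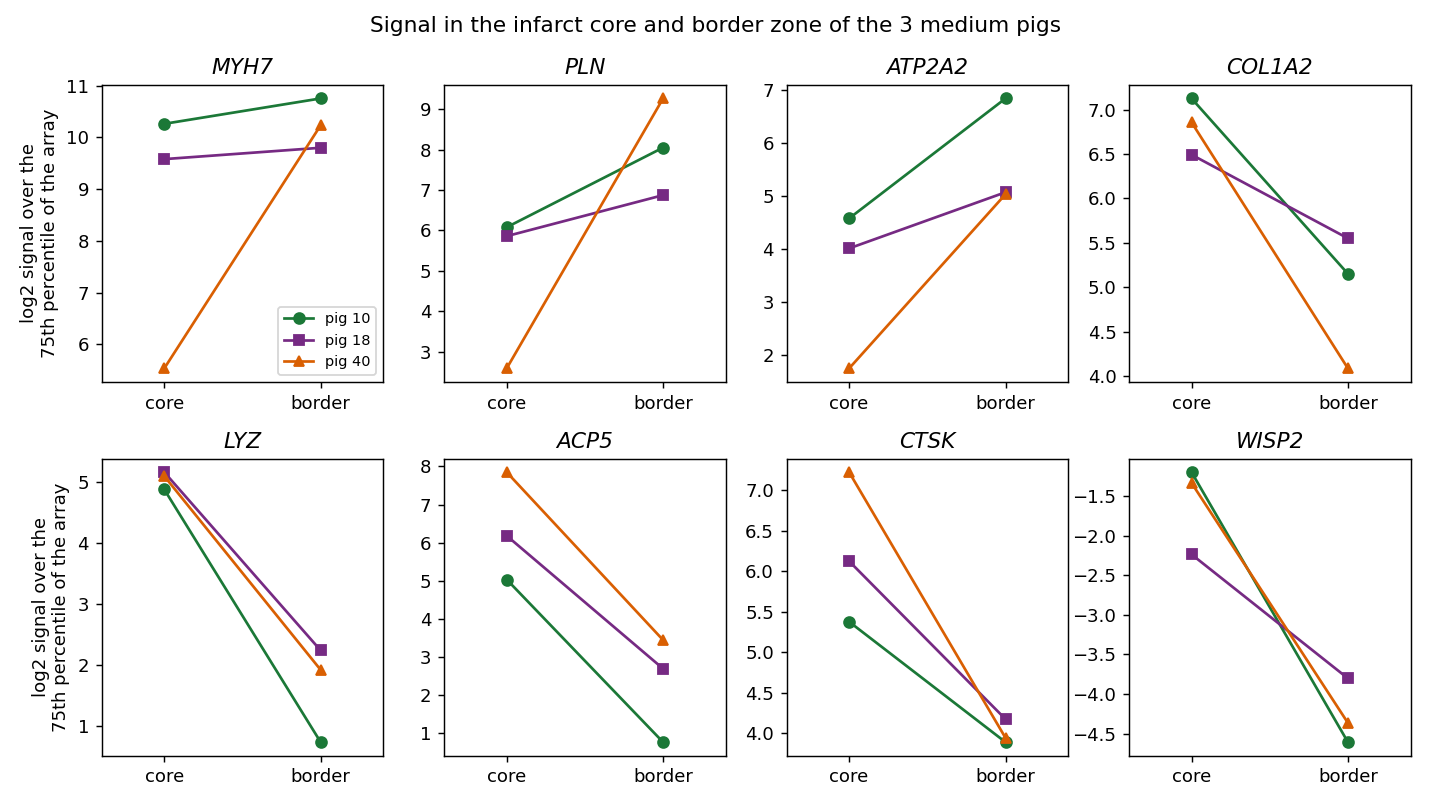
Log2 signal over the array's 75th percentile (y axis, a separate scale for each gene) in the infarct core (left) and border zone (right) of pigs 10, 18 and 40, 1 line per pig, for 3 heart muscle genes, 1 collagen gene and 4 genes of macrophages, proteases or scar. The muscle genes are lower in every core and lowest in that of pig 40 (5.54 for MYH7), and the other 5 genes are higher in every core.

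The pigs differed in how far core and border lay apart. Over all probes the core minus border difference had a standard deviation of 1.00 in pig 10, 0.51 in pig 18 and 1.41 in pig 40. Between pigs these differences correlated at 0.60 (pigs 10 and 18), 0.56 (10 and 40) and 0.57 (18 and 40) over 34362 probes, which share arrays and slides. Of 1814 called genes with a value in each pair, the difference was largest in pig 40 for 1335 and smallest in pig 18 for 1608, and the median size was 1.17, 0.54 and 1.63 in pigs 10, 18 and 40. A group of 182 called genes differed more than 2-fold in every pig, 94 higher and 88 lower. With no test, 781 genes (12.3%) were higher and 611 (9.61%) lower on all 3 core arrays than on any border array.

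**Figure D2:**
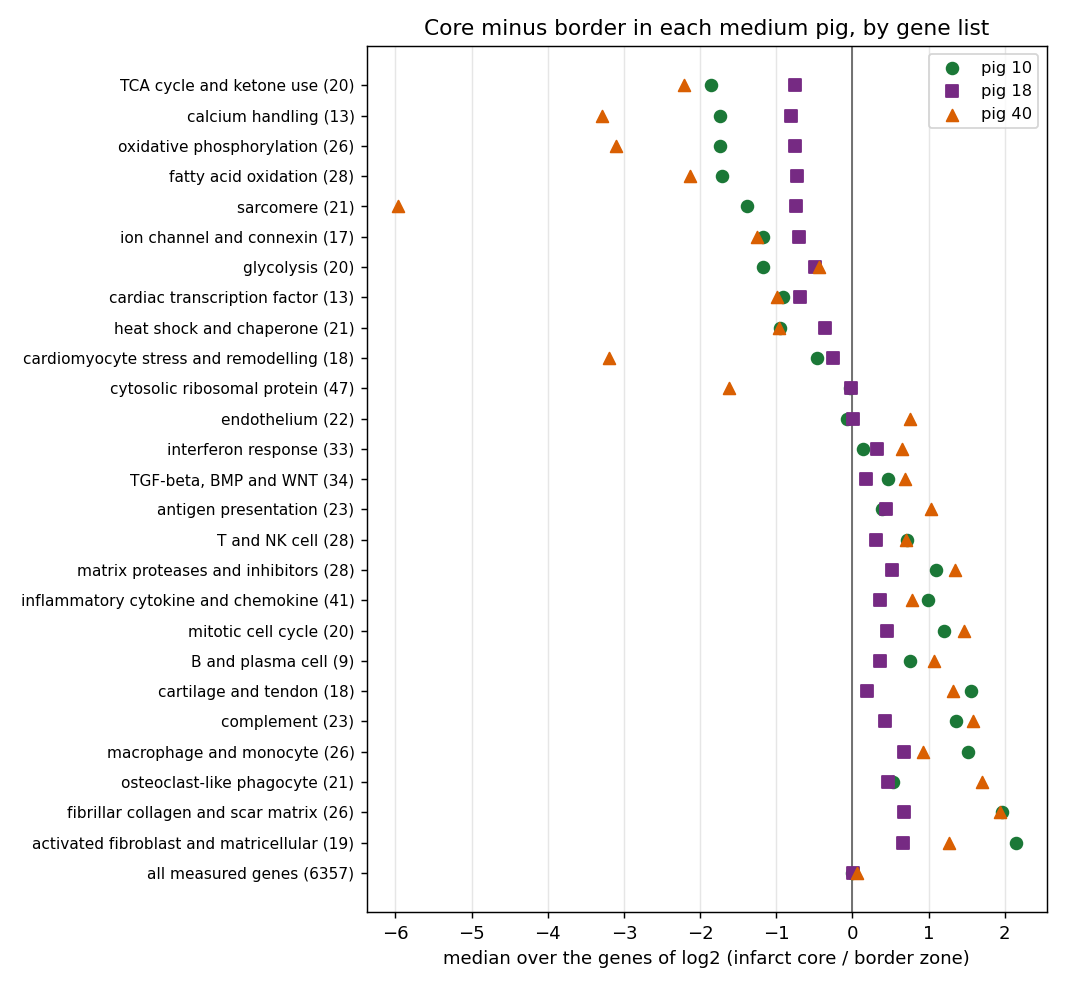
Median over the measured genes of each list (number in brackets) of log2 core over border (x axis), 1 point per medium pig. Sarcomere, calcium, ion channel and energy lists lie left of 0 and scar, protease, macrophage, complement and mitotic lists right of it in all 3 pigs, pig 18 lies nearest to 0 for most lists, and the sarcomere (-5.96) and ribosomal protein (-1.62) medians of pig 40 lie far from those of the other pigs.

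In the gene lists that follow, without pig 40 no member passed the limma test except ACP5 among phagocyte genes and WISP2 among fibroblast genes. With pig 40, the count of each list stands beside 13.8% of all genes called higher and 14.8% called lower. Genes of the sarcomere, the contractile unit of muscle, were lower in the core. Of 34 listed, 21 were measured, and 19 of them were called lower and 0 higher, with a median log2 difference of -2.92 against 0.03 over all genes. The medians by pig were -1.38, -0.74 and -5.96 in pigs 10, 18 and 40, and 20 of the 21 genes were lower in all 3 pigs. Without pig 40 the median was -1.10. MYH7, the slow cardiac myosin heavy chain, read 10.26, 9.58 and 5.54 in the cores of pigs 10, 18 and 40, against 10.75, 9.80 and 10.23 in their borders. The cores of pigs 10 and 18 lay within 0.49 of their own borders on the log2 scale, and that of pig 40 was the one that fell far below. The difference was -1.80 (SE 0.56, limma adjusted p = 0.0238) with pig 40 and -0.35 (SE 0.27, adjusted p = 0.451) without it. Between the 3 pigs the MYH7 difference had a standard deviation of 2.51. TNNI3, cardiac troponin I, had the same pattern, with 10.19, 9.27 and 5.67 in the cores, against 11.00, 9.75 and 11.07 in the borders, a difference of -2.23 (SE 0.60, limma adjusted p = 0.0118) and -0.65 (SE 0.36, adjusted p = 0.292) without pig 40. TCAP, a protein of the Z-disc, read 7.25, 7.50 and 2.61 in the cores, against 9.14, 8.35 and 8.75 in the borders. By pig it differed by -1.89, -0.85 and -6.13, and the mean difference was -2.96 (SE 0.66, limma adjusted p = 0.00486) and -1.37 (SE 0.46, adjusted p = 0.114) without pig 40. MYOZ2 (-3.22, SE 0.74, limma adjusted p = 0.00544, and -1.21 without pig 40) and SMPX (-3.26, SE 0.75, limma adjusted p = 0.00552, and -1.25 without pig 40), further proteins of the sarcomere and its attachments, were the other called members with the smallest p.

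Genes of calcium handling, which release and take up the calcium of each beat, were measured for 13 of 22, with 10 called lower and 1 higher (median -1.74, and -1.27 without pig 40). With normexp 5 were called lower. PLN, phospholamban, which restrains the calcium pump of the sarcoplasmic reticulum, read 6.08, 5.86 and 2.59 in the cores, against 8.05, 6.87 and 9.27 in the borders. The 3 core levels all lay below the 3 border levels, and pig 40 had both the lowest core and the highest border. The difference was -3.22 (SE 0.66, limma adjusted p = 0.00365) and -1.49 (SE 0.48, adjusted p = 0.112) without pig 40. ATP2A2, the pump itself, read 4.58, 4.01 and 1.75 in the cores, against 6.85, 5.07 and 5.04 in the borders, a difference of -2.21 (SE 0.51, limma adjusted p = 0.00552) that was -1.66 (SE 0.56, adjusted p = 0.115) without pig 40. CAMK2D (-1.73, SE 0.35, limma adjusted p = 0.00364, and -1.38 without pig 40), a calcium-dependent kinase, and CACNB2 (-2.60, SE 0.54, limma adjusted p = 0.00382, and -1.49 without pig 40), a subunit of the calcium channel, were also lower. The member that was higher, ASPH (1.03, SE 0.34, limma adjusted p = 0.0333, and 0.86 without pig 40), encodes an enzyme that hydroxylates aspartate residues as well as a calcium-binding junctional protein, and was named after its value was seen.

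Of 26 listed ion channel and connexin genes, 17 were measured, with 9 called lower and 1 higher and a median of -0.98, and -0.93 without pig 40. With normexp 3 were called lower, and the median was -0.29. KCNIP2, which sets the transient outward potassium current, read 4.92, 4.01 and -0.32 in the cores, against 6.95, 5.24 and 5.01 in the borders, a difference of -2.86 (SE 0.65, limma adjusted p = 0.00535) and -1.63 (SE 0.53, adjusted p = 0.112) without pig 40. KCNJ8 (-1.92, SE 0.44, limma adjusted p = 0.0057, and -1.37 without pig 40) and KCNA5 (-1.52, SE 0.35, limma adjusted p = 0.00577, and -1.16 without pig 40), both potassium channels, were lower too. The other kept probe of KCNA5 differed by only -0.21 and was not called. GJA1, the main connexin between ventricular muscle cells, was -0.89 (SE 0.37) and did not pass. The higher member was GJA5 (1.21, SE 0.32, limma adjusted p = 0.0113, and 0.79 without pig 40), the connexin of conduction fibres, atria and arterial endothelium, named after its value was seen.

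Genes of energy metabolism were lower in the core. In the oxidative phosphorylation list, which encodes subunits of the respiratory chain and ATP synthase, 25 of 26 measured genes were called lower and 0 higher (median -1.85). In the list of the tricarboxylic acid cycle and ketone use it was 19 of 20 (median -1.62), and in that of fatty acid oxidation 21 of 28, with 1 higher (median -1.55), or 14 lower with normexp. Without pig 40 these medians were -1.25, -1.32 and -1.25. Pig 18 had the smallest falls, with medians of -0.75, -0.76 and -0.72. ATP5F1, a subunit of ATP synthase, read 5.76, 5.71 and 4.66 in the cores, against 7.63, 6.53 and 7.69 in the borders. All 3 cores lay below all 3 borders, and the difference was -1.91 (SE 0.34, limma adjusted p = 0.00288) and -1.35 (SE 0.37, adjusted p = 0.108) without pig 40. CD36, the fatty acid carrier of the muscle membrane, read 4.04, 4.58 and 1.60 in the cores, against 6.13, 5.5 and 6.93 in the borders, with a difference of -2.78 (SE 0.54, limma adjusted p = 0.00312) and -1.51 (SE 0.46, adjusted p = 0.111) without pig 40. MDH1 (-2.15, SE 0.39, limma adjusted p = 0.00288, and -1.53 without pig 40), PDHB (-1.59, SE 0.29, limma adjusted p = 0.00288, and -1.29 without pig 40) and SUCLA2 (-1.92, SE 0.36, limma adjusted p = 0.003, and -1.41 without pig 40) of the cycle and its entry, and DECR1 (-1.39, SE 0.26, limma adjusted p = 0.00288, and -1.07 without pig 40) and ACADL (-1.81, SE 0.36, limma adjusted p = 0.00328, and -1.33 without pig 40) of fatty acid breakdown, were lower. The gene of fatty acid entry that was higher, CPT1A (1.07, SE 0.31, limma adjusted p = 0.0169, and 0.60 without pig 40), is the form that liver and fibroblasts use, and was named after its value was seen.

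In the glycolysis list 10 of 20 measured genes were called lower and 0 higher (median -0.76, and -0.90 without pig 40, and 5 called lower with normexp), with PFKM, the muscle form of phosphofructokinase, at -2.24 (SE 0.42, limma adjusted p = 0.00298, and -1.63 without pig 40). Among 21 heat shock and chaperone genes 10 were lower and 3 higher, beside 14.8% of all genes lower and 13.8% higher. HSPB2, a small heat shock protein of muscle, was lower (-2.07, SE 0.41, limma adjusted p = 0.00344, and -1.19 without pig 40) and HSPA6, a stress-induced member of the HSP70 family, higher (1.5, SE 0.29, limma adjusted p = 0.0031, and 1.5 without pig 40). HSPA6 read -2.16, -1.30 and -1.28 in the cores, against -3.90, -2.55 and -2.77 in the borders, and all 3 cores lay above all 3 borders. Among 13 measured cardiac transcription factors 6 were lower and 0 higher, and with normexp 1 was. HAND2, a factor of heart development, differed by -1.36 (SE 0.29, limma adjusted p = 0.00391, and -0.99 without pig 40). EYA4, a transcriptional coactivator, was not well above background on any of the 3 core arrays, and its level there was at least 2.78-fold lower than in the border (limma adjusted p = 0.00671), although with normexp its sign turned (0.27). MEF2C and GATA4, core factors of heart muscle, had -0.76 (SE 0.30) and -0.18 (SE 0.28), and neither passed.

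The 12 genes with the lowest values were MYL1, COX8H, LRRC39, CCK, KLHL31, ENO3, XIRP2, AQP7, MB, CSRP3, HSPB3 and ABRA, from -4.78 to -3.34. Most encode proteins of striated muscle, and CCK encodes the peptide cholecystokinin. The AQP7 and KLHL31 levels in the core of pig 40 (-8.06 and -6.35) lay below the 10th percentile of kept probes there (-5.39). The sizes of the AQP7 and KLHL31 differences are thus uncertain. CCK read 3.30, 3.92 and -0.01 in the cores, against 7.42, 5.48 and 5.40 in the borders. It differed by -4.12, -1.56 and -5.41 on the log2 scale in pigs 10, 18 and 40, with no overlap, and the difference was -3.70 (SE 0.71, limma adjusted p = 0.0031) and -2.84 (SE 0.77, adjusted p = 0.107) without pig 40. MB, myoglobin, the oxygen store of muscle, read 4.22, 3.64 and -1.83 in the cores, against 6.21, 4.59 and 5.35 in the borders, a difference of -3.37 (SE 0.77, limma adjusted p = 0.00524) and -1.47 (SE 0.48, adjusted p = 0.112) without pig 40. MYL1, a myosin light chain of fast skeletal muscle that also occurs in embryonic heart, read 3.25, -0.01 and -4.39 in the cores, against 4.32, 2.79 and 6.05 in the borders. The core of pig 10 exceeded the border of pig 18, and pig 40 carried most of the difference (-4.78, SE 1.16, limma adjusted p = 0.00677, and -1.94, SE 0.93, adjusted p = 0.222 without pig 40). Between the 3 pigs the MYL1 difference had a standard deviation of 4.99.

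The natriuretic peptides, which stressed heart muscle releases, had no common direction. NPPA read 5.44, 6.05 and -2.90 in the cores of pigs 10, 18 and 40, against 2.87, 5.03 and 1.02 in their borders. It was higher in the cores of pigs 10 and 18 and lower in that of pig 40, and did not pass (-0.11, SE 1.24, limma adjusted p = 0.962, and 1.80, SE 1.14, adjusted p = 0.36 without pig 40). NPPB read 7.10, 7.69 and 0.43 in the cores, against 6.27, 7.45 and 7.50 in the borders, with the core of pig 40 far below the other 5 arrays (-2.0, SE 1.45, limma adjusted p = 0.342, and 0.54 without pig 40, not past the threshold). Over the list of cardiomyocyte stress and remodelling, 7 of 18 measured genes were lower and 0 higher, beside 14.8% of all genes lower and 13.8% higher.

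Scar matrix genes were higher in the core. Of 43 listed, 26 were measured, 18 were called higher and 0 lower, and the median was 1.56. COL1A1 and COL3A1 had no probe that could be used here. The medians by pig were 1.97, 0.67 and 1.93, 24 of the 26 were higher in all 3 pigs, and without pig 40 the median was 1.35. COL1A2, the alpha 2 chain of type I collagen, read 7.13, 6.49 and 6.86 in the cores, against 5.15, 5.55 and 4.09 in the borders. The 3 cores lay above the 3 borders, and the border of pig 40 was the lowest array. The difference was 1.90 (SE 0.51, limma adjusted p = 0.0113) and 1.46 (SE 0.62, adjusted p = 0.173) without pig 40. FN1, fibronectin, read 7.98, 7.76 and 8.44 in the cores, against 5.57, 6.77 and 5.95 in the borders, a difference of 1.96 (SE 0.56, limma adjusted p = 0.0167) and 1.70 (SE 0.71, adjusted p = 0.169) without pig 40. COL5A2 (1.80, SE 0.39, limma adjusted p = 0.00408, and 1.54 without pig 40), a chain of type V collagen, EMILIN1 (1.49, SE 0.33, limma adjusted p = 0.00477, and 0.76 without pig 40), an elastic fibre protein, and SERPINH1 (1.20, SE 0.28, limma adjusted p = 0.00566, and 0.93 without pig 40), the collagen chaperone HSP47, had the smallest p. The other kept probe of SERPINH1 (1.02) was not called. LUM, the small proteoglycan lumican, was 0.86 (SE 0.57) and did not pass. The muscle markers of the same arrays fell by a median of 2.76 on the log2 scale, and their part in these relative signals was not tested.

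**Figure D3:**
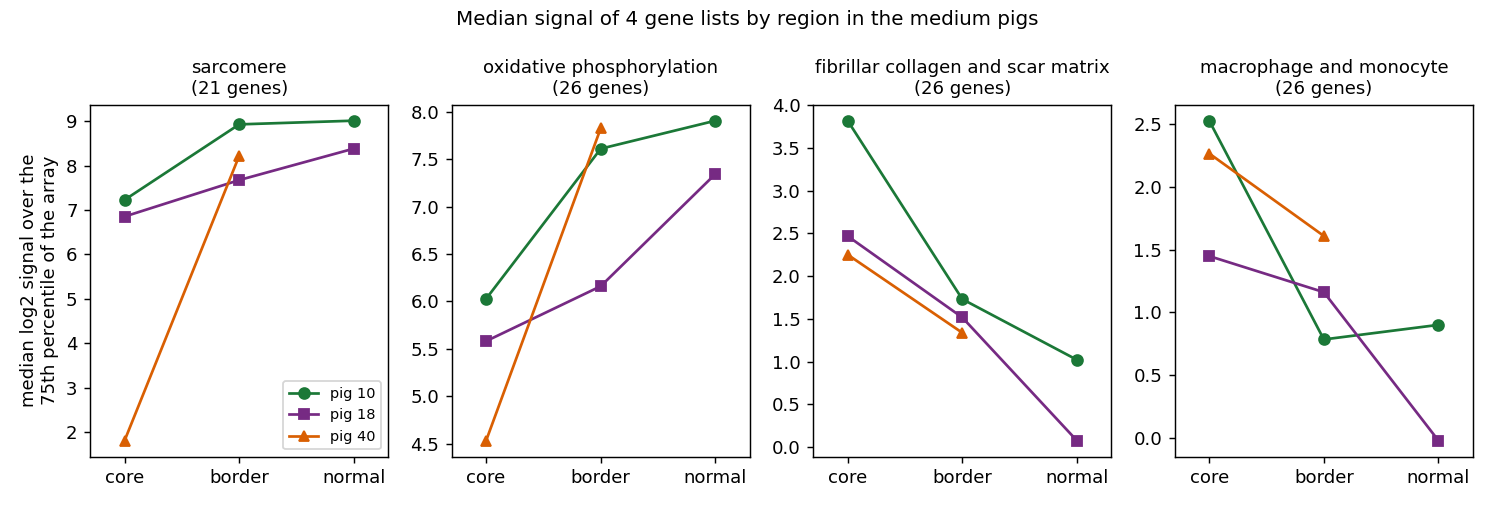
Median log2 signal over the array's 75th percentile (y axis, a separate scale for each panel) of 4 gene lists in core, border and, for pigs 10 and 18, normal region, 1 line per medium pig. Sarcomere and respiratory chain genes are lowest and scar matrix genes highest in the core of each pig, and in these 4 lists the border of pig 18 lies farther from its normal region than that of pig 10.

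Border and normal region were compared in the same way for scar matrix and respiratory chain genes. Against the normal region of the same pig, the scar matrix median of the border was higher by 1.27 in pig 10 and 1.99 in pig 18, and the oxidative phosphorylation median was -0.31 and -1.11. For core minus normal the 2 pigs were closer, with 3.1 and 2.64 for scar matrix and -2.14 and -1.86 for oxidative phosphorylation. These are values of 1 array per region and pig, with no test.

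Genes of activated fibroblasts and matricellular proteins were measured for 19 of 37, with 10 called higher and 0 lower (median 1.38, and 1.48 without pig 40), and with normexp 2 were called. S100A4, a calcium-binding protein of fibroblasts and leukocytes, read 4.26, 4.77 and 5.95 in the cores, against 2.13, 2.69 and 3.05 in the borders. The core was higher by 2.13, 2.08 and 2.91 in the 3 pigs, with no overlap, and the mean difference was 2.37 (SE 0.47, limma adjusted p = 0.00328) and 2.10 (SE 0.56, adjusted p = 0.107) without pig 40. CDH11, the cadherin of mesenchymal cells, differed by 1.79 (SE 0.44, limma adjusted p = 0.00706, and 1.66 without pig 40). POSTN, periostin, and TNC, tenascin C, both matricellular proteins of healing myocardium, were higher in all 3 pigs by a mean of 1.38 (SE 0.74) and 1.72 (SE 0.82), and neither passed. ACTA2, the smooth muscle actin of myofibroblasts and vessels, was lower on its brightest probe (-1.18, SE 0.40, limma adjusted p = 0.037, and -0.71 without pig 40), while 4 of its 6 other kept probes were called higher, so the direction of ACTA2 is uncertain here.

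In the cartilage and tendon list 4 of 18 measured genes were higher and 0 lower, beside 13.8% of all genes higher and 14.8% lower. The medians by pig were 1.56, 0.20 and 1.32, and in pig 18 the core was higher for 11 genes and lower for 7. With normexp 2 of the 18 were called higher. With the authors' values, which hold 12 of the genes, 3 were called higher. The list median there was 0.13, against 0.94 in the reported setting. ACAN, aggrecan, the large proteoglycan of cartilage, read 5.0, 2.70 and 4.06 in the cores, against 1.03, 1.13 and 0.04 in the borders, with a difference of 3.19 (SE 0.94, limma adjusted p = 0.0188) and 2.77 (SE 1.20, adjusted p = 0.179) without pig 40. Its other kept probes differed by 0.10 and 3.21, and 1 of them was called. SPP1, osteopontin, read 2.59, 5.77 and 7.04 in the cores, against 2.20, 2.37 and 2.07 in the borders. In pig 10 core and border were near each other, and in pigs 18 and 40 the core was far higher (2.92, SE 0.78, limma adjusted p = 0.0117, and 1.89, SE 0.89, adjusted p = 0.216 without pig 40). FMOD, fibromodulin, differed by 2.31 (SE 0.77, limma adjusted p = 0.0352, and 1.83 without pig 40), and COMP, the cartilage oligomeric matrix protein, by 1.55 (SE 0.69) without passing.

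Of 28 measured matrix proteases and inhibitors, 16 were higher and 0 lower in the core (median 0.99, and 0.74 without pig 40), and with normexp 4 were called. MMP9, a gelatinase of leukocytes and osteoclasts, read 2.71, 5.58 and 7.01 in the cores, against 0.63, 1.32 and 1.48 in the borders. All 3 cores exceeded all 3 borders, least in pig 10, and the difference was 3.95 (SE 0.71, limma adjusted p = 0.00288) and 3.17 (SE 0.82, adjusted p = 0.105) without pig 40. MMP12, the macrophage elastase, read -3.69, 2.98 and 2.80 in the cores, against -5.0, -3.12 and -2.07 in the borders. Its core level in pig 10 lay below the borders of pigs 18 and 40, and the difference was 4.09 (SE 1.19, limma adjusted p = 0.018) and 3.71 (SE 1.47, adjusted p = 0.15) without pig 40. CTSK, cathepsin K, the collagen-degrading protease of osteoclasts and some macrophages, read 5.38, 6.12 and 7.22 in the cores, against 3.89, 4.17 and 3.94 in the borders. The borders lay close together and the cores all higher, a difference of 2.24 (SE 0.35, limma adjusted p = 0.00156) and 1.72 (SE 0.38, adjusted p = 0.0709) without pig 40. MMP14, a membrane-bound collagenase, differed by 2.14 (SE 0.38, limma adjusted p = 0.00288, and 1.5 without pig 40).

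Phagocyte genes were higher in the core. In the macrophage and monocyte list 17 of 26 measured genes were called higher and 0 lower, with a median of 1.07 and pig medians of 1.52, 0.67 and 0.93. Without pig 40 the median was 1.13, with 25 of 26 positive. With normexp background correction 1 of the 26 was called higher, 2 of the 26 scar matrix genes and 9 of the 21 phagocyte genes shared with osteoclasts, against 58 of all 6357 genes. The macrophage median of pig 40 was 0.02 there, against 0.93 in the reported setting. It also fell in pig 40 for scar matrix (0.54, against 1.93), activated fibroblast (0.23, against 1.27) and complement genes (0.25, against 1.59). The mitotic (1.65, against 1.46) and cartilage (1.70, against 1.32) medians rose in that pig. LYZ, lysozyme, read 4.88, 5.16 and 5.10 in the cores, against 0.74, 2.24 and 1.92 in the borders. The 3 cores lay close together and 4.14, 2.92 and 3.17 above their own borders, a mean difference of 3.41 (SE 0.61, limma adjusted p = 0.00288) and 3.53 (SE 0.77, adjusted p = 0.0709) without pig 40. C1QA, a chain of complement C1q made by macrophages, read 5.14, 4.52 and 5.48 in the cores, against 3.51, 3.60 and 3.72 in the borders, with a difference of 1.43 (SE 0.28, limma adjusted p = 0.00341, and 1.27 without pig 40). CD14 (1.29, SE 0.32, limma adjusted p = 0.00758, and 0.92 without pig 40), the endotoxin co-receptor, CD163 (1.02, SE 0.32, limma adjusted p = 0.0244, and 1.06 without pig 40), the haemoglobin scavenger receptor, AIF1 (0.90, SE 0.29, limma adjusted p = 0.03, and 1.16 without pig 40) and FCER1G (1.41, SE 0.26, limma adjusted p = 0.00288, and 1.27 without pig 40), an Fc receptor chain, were higher as well.

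A list of genes that osteoclasts and lipid-laden phagocytes share had 11 of 21 measured members higher and 5 lower (median 1.46). Over all genes 13.8% were higher and 14.8% lower. The list medians by pig were 0.54, 0.465 and 1.70 in pigs 10, 18 and 40, with 9, 5 and 9 of the genes lower. Beside ACP5, MMP9, CTSK and SPP1 above, DCSTAMP, a protein needed for the fusion of osteoclasts, read -1.79, 0.81 and 2.01 in the cores, against -3.69, -2.96 and -2.34 in the borders. It was higher in every pig with no overlap, a difference of 3.34 (SE 0.62, limma adjusted p = 0.00288) and 2.83 (SE 0.72, adjusted p = 0.105) without pig 40. LGALS3, galectin 3, read 4.12, 4.61 and 5.37 in the cores, against 1.4, 2.64 and 1.66 in the borders, with a difference of 2.80 (SE 0.44, limma adjusted p = 0.00156, and 2.34 without pig 40). LIPA, the lysosomal acid lipase, differed by 1.45 (SE 0.22, limma adjusted p = 0.00156), close to the threshold without pig 40 (1.33, SE 0.26, adjusted p = 0.0552), and APOE by 2.89 (SE 0.52, limma adjusted p = 0.00288, and 2.75 without pig 40). The 5 lower members were CD36, LPL, FABP4, CHIT1 and PLA2G7, of which the first 3 handle fatty acids in muscle, fat and endothelium as well. CHIT1 (-1.86, SE 0.47, limma adjusted p = 0.0084, and -0.89 without pig 40) and PLA2G7 (-1.27, SE 0.40, limma adjusted p = 0.0255, and -1.23 without pig 40) were named after their values were seen.

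Complement genes were higher for 12 of 23 measured members and lower for 2 (median 1.21, and 0.97 without pig 40). C5AR1, the receptor for the C5a fragment, read 4.21, 4.27 and 5.14 in the cores, against 2.15, 3.13 and 2.79 in the borders, a difference of 1.85 (SE 0.29, limma adjusted p = 0.00156) and 1.60 (SE 0.34, adjusted p = 0.0702) without pig 40. The lower members were C5 (-1.65, SE 0.47, limma adjusted p = 0.0164, and -1.25 without pig 40) and MASP1 (-2.10, SE 0.51, limma adjusted p = 0.00719, and -1.29 without pig 40), named after their values were seen. Antigen presentation had 12 of 23 higher and 0 lower (median 0.68), with the class II genes SLA-DMA (0.80, SE 0.20, limma adjusted p = 0.00872, and 0.68 without pig 40) and CD74 (1.11, SE 0.29, limma adjusted p = 0.0094, and 0.59 without pig 40) among them. With normexp 0 of these 23 were called, with a list median of 0.23 and -0.52 in pig 40, and 1 of the 23 complement genes.

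Among T and NK cell genes 2 of 28 measured were higher and 0 lower, beside 13.8% higher and 14.8% lower over all genes, so the count was no larger than that share. The 2 were NKG7 (1.64, SE 0.29, limma adjusted p = 0.00288, and 1.19 without pig 40), a granule protein of cytotoxic cells, and CD4 (1.53, SE 0.43, limma adjusted p = 0.0144, and 0.89 without pig 40), which in humans some macrophages carry too. CD3E, of the T cell receptor complex, was 0.92 (SE 0.38) and did not pass, although it was higher in 3 of 3 pigs. With no test, 15 of the 28 T and NK cell genes were higher and 0 lower in all 3 pigs. Over all genes these shares were 30.4% and 28.5%. Of 9 measured B and plasma cell genes 4 were higher and 1 lower. CD79A, of the B cell receptor, read -3.82, -2.70 and -2.22 in the cores, against -5.98, -4.35 and -5.19 in the borders. The difference was 2.26 (SE 0.47, limma adjusted p = 0.00368, and 1.91 without pig 40). Its border in pig 10 lay below the 10th percentile of kept probes on that array (-5.38), so the size is uncertain. Among 41 cytokine, chemokine and signalling genes 11 were higher and 0 lower, with CXCL14 (2.41, SE 0.58, limma adjusted p = 0.0066, and 1.75 without pig 40), TNFSF13B (1.25, SE 0.28, limma adjusted p = 0.00477, and 1.25 without pig 40) and the adaptor MYD88 (1.06, SE 0.21, limma adjusted p = 0.0032, and 0.95 without pig 40) leading by p. IL1B (1.11, SE 0.54), TNF (0.22, SE 0.34) and CASP1 (0.54, SE 0.28) did not pass. The interferon list had 2 of 33 higher, again below the 13.8% of all genes, IRF1 (0.93, SE 0.22, limma adjusted p = 0.00653, and 0.57 without pig 40) and IFI30 (1.99, SE 0.65, limma adjusted p = 0.0316, and 1.57 without pig 40). With normexp 1 of the 41 cytokine genes and 0 of the 9 B and plasma cell genes were called.

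The mitotic cell cycle list had 9 of 20 measured genes higher and 0 lower (median 1.12, and 0.83 without pig 40). Of these 20 genes 19 were higher in 3 of 3 pigs, against 30.4% of all genes. With normexp 0 of the 20 were called, with a median of 0.67. TOP2A, the topoisomerase of dividing cells, read -1.86, -1.99 and -0.83 in the cores, against -2.99, -2.52 and -3.08 in the borders, so that all cores lay above all borders. The difference was 1.30 (SE 0.31, limma adjusted p = 0.00655) and 0.83 (SE 0.34, adjusted p = 0.159) without pig 40, and TPX2 (1.56, SE 0.35, limma adjusted p = 0.00476, and 0.97 without pig 40) and CDC20 (1.65, SE 0.39, limma adjusted p = 0.00635, and 1.24 without pig 40), both of the mitotic spindle and its exit, passed too. The other kept probe of TPX2 differed by 0.52 and was not called.

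Of 34 measured genes of TGF-beta, BMP and WNT signalling 8 were higher and 0 lower, among them TGFB1 (0.72, SE 0.18, limma adjusted p = 0.00751, and 0.35 without pig 40), LEF1 (1.22, SE 0.25, limma adjusted p = 0.0037, and 1.19 without pig 40) and the BMP antagonist CHRD (1.67, SE 0.39, limma adjusted p = 0.00557, and 1.21 without pig 40), while TGFB3 was 0.92 (SE 0.61) and did not pass. The share of all genes higher was 13.8%, and with normexp 1 of the 34 was called. Of 22 endothelial genes 3 were higher and 2 lower, close to or below the 13.8% and 14.8% of all genes. LYVE1, a receptor of lymphatic endothelium and of some macrophages, differed by 1.81 (SE 0.40, limma adjusted p = 0.00464, and 1.52 without pig 40), ICAM1, a leukocyte adhesion molecule, by 1.17 (SE 0.23, limma adjusted p = 0.00344, and 0.77 without pig 40), and CA4, a carbonic anhydrase of capillaries, by -1.81 (SE 0.40, limma adjusted p = 0.0046, and -1.48 without pig 40). PECAM1, of all endothelium, was 0.23 (SE 0.22) and did not pass. VEGFA, the vessel growth factor, read -0.30, 0.10 and -0.82 in the cores, against 1.35, 0.69 and 0.86 in the borders. It was lower in each pig with no overlap, a difference of -1.30 (SE 0.26, limma adjusted p = 0.00328) and -1.12 (SE 0.31, adjusted p = 0.108) without pig 40.

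The remaining lists, kept as markers of other cells or processes, had the following counts, beside 13.8% of all genes higher and 14.8% lower. Smooth muscle and pericyte genes had 1 higher and 3 lower of 9, adipocyte genes 3 higher and 2 lower of 15, and skeletal muscle genes 2 lower of 8. The neutrophil and mast cell list had 1 higher of 10, KIT (1.12, SE 0.30, limma adjusted p = 0.0109, and 0.61 without pig 40), a receptor of mast cells, and its pig medians were 0.95, 1.00 and -1.08. Mesothelium and epicardium had 1 higher of 4, TBX18 (1.62, SE 0.38, limma adjusted p = 0.00577, and 1.64 without pig 40), and nerve and red blood cell lists had 0 called of 8 and of 6. The B and plasma cell gene that was lower was PAX5 (-1.07, SE 0.37, limma adjusted p = 0.0428, and -1.10 without pig 40), a B cell factor named after its value was seen. Lipid and cholesterol handling had 6 higher and 7 lower of 26, and the insulin-like growth factor list 2 higher of 14, the binding proteins IGFBP3 (2.39, SE 0.44, limma adjusted p = 0.00288, and 1.41 without pig 40) and IGFBP4 (1.00, SE 0.35, limma adjusted p = 0.0464, and 1.00 without pig 40). The other kept probe of IGFBP4 (1.02) was not called. The IGFBP3 border of pig 40 (-6.40) lay below the 10th percentile of kept probes on its array (-5.56). The size of the IGFBP3 difference is thus uncertain.

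Of the 12 highest genes, those not yet described were RPTN, CD209, UPK1B, DUOX2 and KCNV1. CD209, a lectin of dendritic cells and macrophages, read -0.94, -1.10 and 0.40 in the cores, against -4.62, -2.90 and -4.54 in the borders, with a difference of 3.48 (SE 0.66, limma adjusted p = 0.00302) and 2.75 (SE 0.79, adjusted p = 0.109) without pig 40. RPTN, a protein of the skin barrier, was the highest of all at 4.21 (SE 0.76, limma adjusted p = 0.00288). It read -0.63, -3.15 and -1.01 in the cores, against -7.16, -3.84 and -6.41 in the borders, with the core far above the border in pigs 10 and 40 and close to it in pig 18. Its borders in pigs 10 and 40 lay below the 10th percentile of kept probes on their arrays (-5.38 and -5.56). The size of the RPTN difference is thus uncertain. Without pig 40 the difference was 3.61 (SE 0.95, adjusted p = 0.107). UPK1B (3.25, SE 0.71, limma adjusted p = 0.00444, and 2.33 without pig 40), DUOX2 (3.23, SE 0.60, limma adjusted p = 0.00288, and 2.56 without pig 40) and KCNV1 (3.07, SE 0.91, limma adjusted p = 0.0194, and 2.63 without pig 40) also had their smallest difference in pig 18. The KCNV1 borders of pigs 10 and 40 (-7.38 and -6.62) lay below the same percentiles as those of RPTN. The other kept probes of DUOX2 had smaller differences, from 1.02 to 1.98, and 3 of them were called higher.

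The 6 called genes that were over 2-fold different in every pig and varied least between pigs were CCR1, SCIN, GPNMB, CSTB, GIMAP4 and CD48, all higher in the core. CCR1, a chemokine receptor of monocytes, read 0.84, 1.58 and 2.69 in the cores, against -1.37, -0.80 and 0.40 in the borders. Core and border levels both differed between pigs, in the same order, so that the differences were 2.21, 2.38 and 2.29. The mean difference was 2.29 (SE 0.39, limma adjusted p = 0.00241) and 2.3 (SE 0.44, adjusted p = 0.0552) without pig 40. GPNMB, a glycoprotein of phagocytes and osteoclasts, read 5.20, 5.10 and 5.67 in the cores, against 3.23, 3.32 and 3.84 in the borders, with differences of 1.97, 1.79 and 1.82 and a mean of 1.86 (SE 0.65, limma adjusted p = 0.0427, and 1.88 without pig 40).

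**Figure D4:**
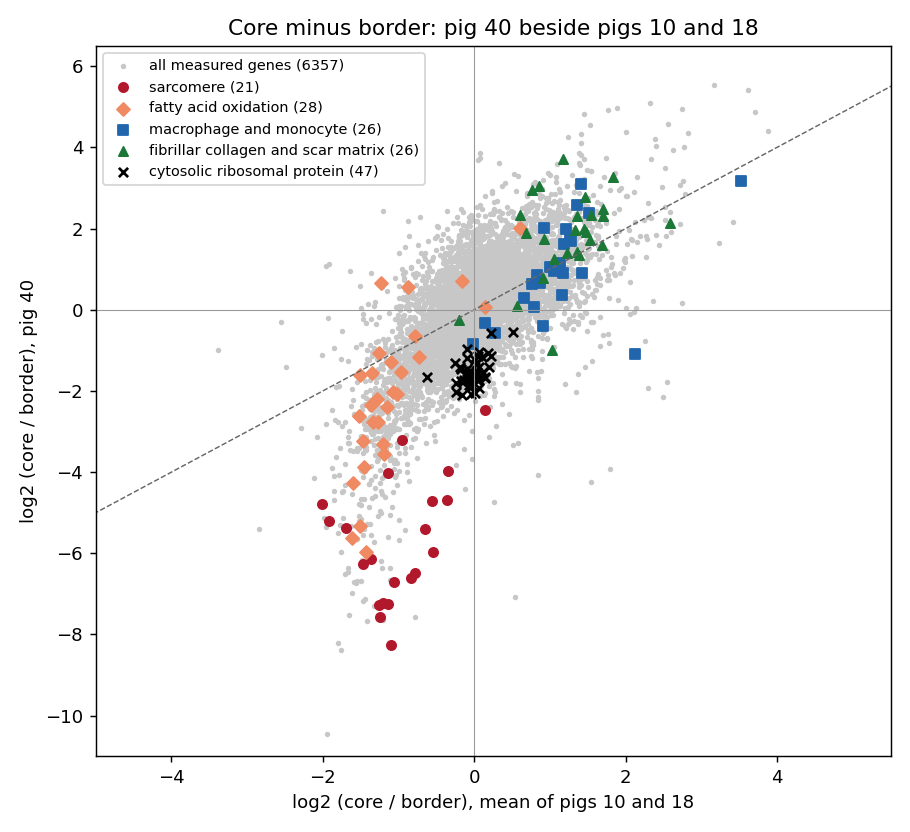
Log2 core over border in pig 40 (y axis) against the mean of pigs 10 and 18 (x axis), 1 point per gene, with 5 gene lists marked and a dashed line of equal values. Sarcomere genes fall far below the line and ribosomal protein genes lie near 0 for pigs 10 and 18 but below 0 for pig 40 (median -1.62), while macrophage and scar genes lie on both sides of the line.

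Pig 40 set the size of many differences. The 6 genes farthest below the other pigs in pig 40 were MYL1, COX8H, XIRP2, HSPB3, NPPB and TNNT1, all of muscle. COX8H, the muscle form of a cytochrome oxidase subunit, read 6.45, 4.80 and 0.09 in the cores, against 8.80, 5.98 and 8.46 in the borders, so the 3 borders resembled each other more than the 3 cores did. The 6 genes farthest above were MYO7A, COL4A6, CD5L, KIAA1211L, PAPLN and NFATC1. For MYO7A it was the border that stood apart, with -3.13, -3.78 and -2.55 in the cores, against -3.25, -3.81 and -6.42 in the borders. CD5L, a protein that macrophages secrete, had a high core in pig 40 instead, with -1.75, -1.61 and 1.12 in the cores, against -2.11, -1.35 and -2.56 in the borders. Leaving out the core array of pig 40 alone called 159 probes and leaving out its border array alone 885, against 19 without either.

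Cytosolic ribosomal protein genes were near 0 in pigs 10 and 18 and lower in pig 40. The list medians were -0.03, -0.02 and -1.62 in pigs 10, 18 and 40, and all 47 measured genes were lower in pig 40. Of these 47, 11 were called lower and 0 higher. The direction depended on scaling, with a list median of -0.56 here, 0.17 after quantile normalization and 0.15 with the authors' normalized values. After quantile normalization 2 were called higher and 1 lower, with a pig 40 median of -0.13. With the authors' values, which hold 40 of the genes, 3 were higher and 1 lower, with a pig 40 median of -0.12, and with normexp 0 were called. RPS6, of the small subunit, read 6.47, 6.76 and 6.78 in the cores, against 6.80, 6.94 and 8.08 in the borders, and the border of pig 40 was the highest of the 6 arrays. Its difference was -0.61 (SE 0.19, limma adjusted p = 0.0255, and -0.26 without pig 40), and 0.05 after quantile normalization and 0.03 with the authors' values, where it did not pass.

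The same contrast was set against the secretome arm. Among 6 secretome pigs 13790 of 34362 probes (40.1%) passed, with 1389 genes (21.8%) higher and 1499 (23.6%) lower in the core. The test of the difference between arms called 0 probes (limma, smallest adjusted p = 0.514), with 1877 at an unadjusted p under 0.05. Over the 34362 probes the log2 differences of both arms correlated at 0.80, which is a description, as the arrays shared slides and scan series. Sarcomere genes had a median of -2.92 in medium pigs, -1.10 without pig 40, and -1.12 in secretome pigs. Their arm differences had a median of -1.69, 9 of 21 had an unadjusted p under 0.05, and 0 passed the adjusted test. Macrophage genes had medians of 1.07 with medium and 1.02 with secretome, and scar matrix genes 1.56 with medium and 1.86 with secretome.

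**Figure D5:**
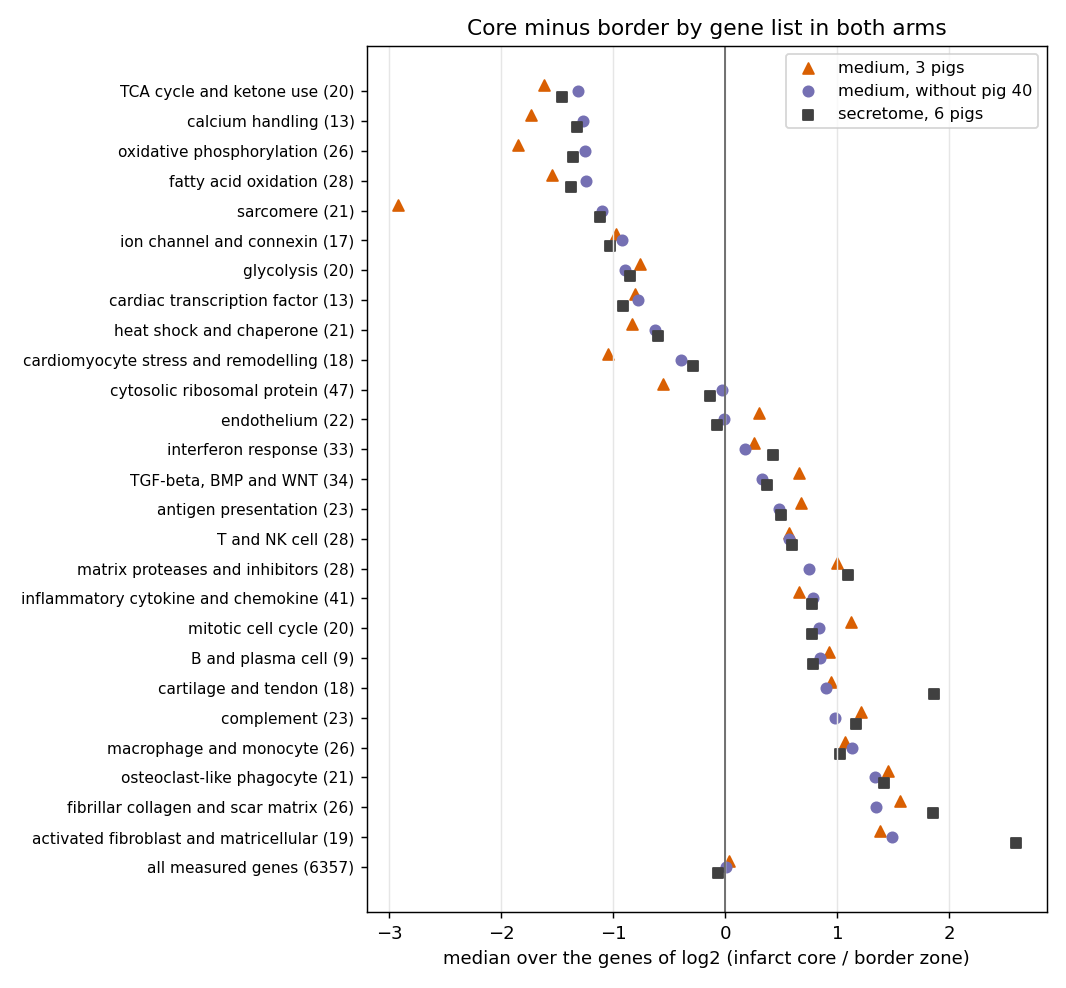
Median over the measured genes of each list of log2 core over border (x axis) in the medium arm with all 3 pigs, in the medium arm without pig 40 and in the 6 secretome pigs. The sarcomere median of the medium arm moves to -1.10 without pig 40, beside -1.12 in the secretome arm, and for activated fibroblast genes the secretome median is the highest of the 3.

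The smallest p of the arm difference belonged to ADAMTS5, CATSPER1, FCN1, CD209 and TFF1, none past the adjusted threshold. ADAMTS5, a protease that cleaves aggrecan, had core minus border differences of 1.17, 0.72 and 1.00 in medium pigs 10, 18 and 40, against -0.56 to 0.40 (median -0.31, higher in 1 of 6) in secretome pigs. The arm difference was 1.21 (95% interval 0.72 to 1.70, limma adjusted p = 0.514). FCN1, a lectin of monocytes, had differences of 2.0, 1.08 and 3.41 in medium pigs, against -1.12 to 0.84 (median -0.13, higher in 3 of 6) in secretome pigs, an arm difference of 2.27 (95% interval 1.23 to 3.31, limma adjusted p = 0.514). CATSPER1, a channel subunit of sperm, was not well above background on any medium border array, and its core level was at least 1.23-fold higher than the border (limma adjusted p = 0.00477). For ACP5 the arm difference was -0.04 (95% interval -1.44 to 1.36, limma adjusted p = 0.993), and for WISP2 0.28 (95% interval -0.43 to 1.00, limma adjusted p = 0.909). For CYP2D25 it was 1.18 (95% interval 0.61 to 1.75, limma adjusted p = 0.514), also not past the adjusted threshold. With pig 18 left out 4 probes passed the test of the arm difference, those of CLDN3 (log2 2.58, SE 0.29, limma adjusted p = 0.00189) and RPTN (5.01, SE 0.77, adjusted p = 0.0452) and 2 with no gene name here, and CLDN3 was named after its value was seen.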

How the data were processed

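Total RNA was measured in 24 samples of 9 pigs on 1-colour Agilent arrays, of which the 6 core and border arrays of medium pigs are the subject here. The deposited scanner files hold, per the file headers, background-subtracted signal intensity of each spot from Feature Extraction 10.7.3.1. A deposited table of normalized log2 values, whose scaling is not given in the sources used here, served as an alternative. The submitters' processing notes name limma 3.14.4.

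Each intensity was divided by its array's 75th percentile and taken to log2, without control spots and flagged outlier spots. The 34362 probes that 3 or more of the 24 arrays read well above background were kept, and a gene was read from its brightest kept probe. limma 3.58.1 (R 4.3.3) fitted all groups with pig as a random block (duplicateCorrelation, correlation 0.55), with Benjamini-Hochberg adjustment over all kept probes. The pairing by pig comes from the labels. The deviations of core and border from their group means correlated at 0.78, 0.48 and 0.37 in pigs 10, 18 and 40. These values do not test the pairing, as core and border of pigs 10 and 18 also shared a slide. No correlation between different pigs was set beside them. Of 43603 probes 14781 had 1 gene symbol, 32 several and 28790 none. On simulated data for this contrast with 10000 probes, 31 of 100 changes of 2-fold and 80 of 100 of 4-fold were recovered. There were 8 false calls, and the simulated pig correlation was 0.5. Recovery was not tested for pairs as uneven as those of pigs 18 and 40. For arrays, their number limits the precision.

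The members and gene lists were chosen with earlier results of these data known. Named genes were the 12 highest and 12 lowest called genes with the same direction in 3 pigs, the 3 smallest p per list, a list of known heart and scar genes, the 5 smallest p between arms, the 6 highest and 6 lowest departures of pig 40, and the 6 most even genes over 2-fold in every pig. The 5 genes called without pig 40 and 8 called against the direction of their list were added because they were few. Alternatives were other scalings and background correction, filters on dim probes, slide, scan series and the block as terms, array weights, probe averaging, and leaving out each pig.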

Additional observations from a re-analysis of the deposited data

Results flagged for a closer look

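Both values noted here come from the secretome pigs that served for comparison, since groups of 3 were not screened. Chance alone sets apart about 1 in 20 groups, and 40 were screened. The core minus border median of the nerve and Schwann cell list was -0.366 in secretome pig 15, the lowest of 6 and set apart from the next pig. For CATSPER1 the core minus border difference was 0.492 in secretome pig 13, the highest of 6, with a gap to the next pig of 0.673 of the whole range.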

How the results depend on the processing

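Counts of calls depended on pig 40, on the block and on the background correction, and the cause was not tested beyond what each alternative changes. Leaving out each pig in turn gave 19 to 9005 probes, 5 to 965 genes higher and 0 to 1037 genes lower, lowest without pig 40, and 0 to 4 probes for the arm difference, highest without pig 18. Without pig 10 there were 3416 probes, 367 genes higher and 462 lower. The single arrays of pig 40 were left out after seeing the data: without its core array 159 probes, 29 genes higher and 4 lower passed, and without its border array 885 probes, 148 higher and 64 lower. With no replicate block for the pig pairing 987 probes, 116 genes higher and 111 lower passed, and on the 6 medium arrays alone 0 of each. Slide as a covariate gave 1341 probes, 168 genes higher and 163 lower, array weights 3771, 372 and 522, and normexp 1527, 58 and 314. The authors' values, which hold only 4832 genes, gave 822 higher and 565 lower. Normexp moved the median of all genes to 0.18, against 0.03 in the reported setting. The other filters, scalings and covariates kept each count within 1.5 times.

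Only 5 genes were called both with and without pig 40. Of the named genes, 20 kept direction and call status without pig 40, a count that includes genes called in neither fit. A further 136 lost the call with the same direction. The matching counts were 71 and 89 with no replicate block, 73 and 86 with slide as a covariate, and 82 and 73 under normexp. Among these genes and the lists with a called member, the following changed direction. Leaving out each pig in turn gave -1.45 to 1.80 for NPPA, -3.41 to 0.54 for NPPB, -0.07 to 0.43 for PECAM1 and -1.21 to 0.92 for KIAA1211L, the sign turning without pig 40, and -0.46 to 0.063 for GATA4, turning without pig 10. The list medians without pig 40 were -0.009 for endothelium and -0.17 for mesothelium. Without its core array NPPA was 2.16, NPPB 0.46, KIAA1211L -0.78 and mesothelium -0.038, and without its border array NPPA was 0.62, PECAM1 -0.074, KIAA1211L -1.18, endothelium -0.051 and mesothelium -0.11. Under normexp EYA4 was 0.27, RPL27A 0.43, NPPA 0.83, PECAM1 -0.29, GATA4 0.36, interferon genes -0.034 and adipocyte genes 0.16. The nerve and red blood cell lists, with 0 called, had 0.53 and 0.51 there, against -0.13 and -0.26 in the reported setting. After quantile normalization RPS6 was 0.049, NPPA 0.029, KIAA1211L -0.10, ribosomal genes 0.17 and lipid handling 0.027. With the authors' values RPL27 was 0.005, RPS6 0.034, NPPA 0.57, smooth muscle 0.11 and ribosomal genes 0.15. KIAA1211L was -0.30 with slide as a covariate and -0.29 with array weights, and ACTA2 1.30 as the mean of its probes. Signal over background limited EYA4 in the core and CATSPER1 in the border to bounds. A bound was set only where no array of a region read well above background. Dim border levels of RPTN, STEAP1 and KCNV1 were used as read. So were other levels below the 10th percentile of kept probes on their array. Among them were IGFBP3 (-6.40) and MYO7A (-6.42) in the border of pig 40 and CD79A (-5.98) in that of pig 10. AQP7 (-8.06) and KLHL31 (-6.35) in the core of pig 40 were others.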
